A study of Mus musculus with 9 samples.

Results

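The potassium channel genes of mouse primary myoblasts were followed across BMP4, GREM1 and control cultures. They were taken as all named probe sets whose gene symbol is Kcn followed by further letters and a closing number, with antisense and overlapping-transcript names left out and 1 probe set kept per gene. Symbols that do not close in a number, such as Kcne1l and Kcnrg, also fell outside that rule. The rule gave 88 genes of 24011 named genes on the array. Of these, 73 encode pore-forming subunits and 15 encode auxiliary subunits. Of the 88, 68 were bright enough to be tested, meaning that on 3 or more of the 9 arrays the probe set was brighter than the dimmest 30% of named probe sets there. That condition was met by 17142 genes in all.

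The myoblasts were grown from satellite cells of skeletal muscle in 20% FBS with basic FGF and then moved to 2% horse serum. They received recombinant BMP4 at 100 ng/ml, GREM1 at 500 ng/ml or a mock treatment as control, and RNA was taken after 24 h. BMP4 is a secreted signalling protein that restrains differentiation of muscle precursors, and GREM1 (gremlin) is a secreted protein that binds and blocks BMPs. Each group had 3 samples, each on 1 Affymetrix array, and all values below are log2 expression levels. No strain, sex or age of the source animals is used here, and the labels do not say that the replicates came from separate cultures. The p-values therefore measure the spread between these samples, which may be technical. Both comparisons against control used the same 3 control arrays.

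Potassium channels let K+ leave or enter the cell along its gradient and so set the membrane potential. Voltage-gated channels open on depolarization, inward rectifiers hold the resting potential, two-pore domain channels carry background current, and calcium-activated channels couple the potential to intracellular Ca2+. Auxiliary subunits bind the pores and change their gating or their traffic. In cultured human myoblasts, an ether-a-go-go current and then the inward rectifier Kir2.1 hyperpolarize the cell before it fuses.

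The arrays were alike in overall brightness, with medians between 5.00 and 5.12. The first principal component held 42.2% of the variance and placed the GREM1 arrays (15.96 to 27.5) apart from the other arrays, all below 0. On the second (20.9%), control array 1 stood apart at 31.6, the next being BMP4 array 1 at 6.12. All 8 skeletal muscle lineage markers passed the brightness filter. Their summed level was 13.1 to 13.4 in BMP4, 13.5 on every GREM1 array and 13.0 to 13.3 in control arrays. Single lineage markers went in different directions in GREM1 minus control: Itga7 (1.00 ± 0.12, limma adjusted p = 0.00321) and Cdh15 (0.91 ± 0.11, adjusted p = 0.00348) passed, and Myf5 differed by -0.85 ± 0.29 (adjusted p = 0.144). Of other cell types, 3 of 6 leukocyte markers on the array were bright enough to test, 4 of 8 endothelial, 3 of 7 fibroblast, 7 of 8 pericyte and smooth muscle, 5 of 6 Schwann cell and glial, and 5 of 8 neuronal markers. The Schwann and glial sum was 7.68 to 8.43 in BMP4, 8.80 to 9.23 in GREM1 and 7.74 to 8.62 in control arrays. In that list Erbb3, a receptor tyrosine kinase, ran from 6.62 to 8.94, and the glial factor Sox10 stayed between 4.52 and 4.83 on all arrays. The pericyte and smooth muscle sum was 8.78 to 9.02 in BMP4, 8.74 to 8.86 in GREM1 and 8.67 to 8.70 in control arrays. In BMP4 minus GREM1, 3 of the 7 tested markers of that list passed, Mcam (1.06 ± 0.16, limma adjusted p = 0.00397) and Cspg4 (0.56 ± 0.10, adjusted p = 0.0132) higher and Abcc9 lower, which is also a channel partner described below. Of the neuronal markers Stmn2 passed, lower in GREM1 minus control (-0.89 ± 0.15, limma adjusted p = 0.0154) and higher in BMP4 minus GREM1 (1.44 ± 0.15, adjusted p = 0.000594). The part of these cell types in the results below was not tested. In bulk RNA, fewer cells of a type and less RNA per cell cannot be told apart.

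Most potassium channel genes were dim. Of the 20 that were not bright enough to test, values ran from 2.89 to 4.06, and 16 lay below the filter level of 3.89 to 4.02 on all 9 arrays. They include Kcna5, a Kv1 pore (3.12 to 4.06), and Kcnj8, a pore of ATP-sensitive channels (3.63 to 3.85). Of the 68 tested, 53 lay above that level on every array. Only 8 of the 68 (11.8%) lay above their own array's median on all 9 arrays, against 63.9% of all genes tested. These were Kcnc4, Kcnf1, Kcnj11, Kcnj12, Kcnj14, Kcnk4, Kcnk13 and Kcnn3. By class, 14 of 14 two-pore domain genes, 11 of 15 inward rectifiers, 8 of 10 silent voltage-gated subunits and 11 of 15 auxiliary subunits were tested. Of the calcium- or sodium-activated genes 5 of 8 were tested, of the Kv1 genes 5 of 8 and of the ether-a-go-go genes 6 of 8.

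**Figure D1:**
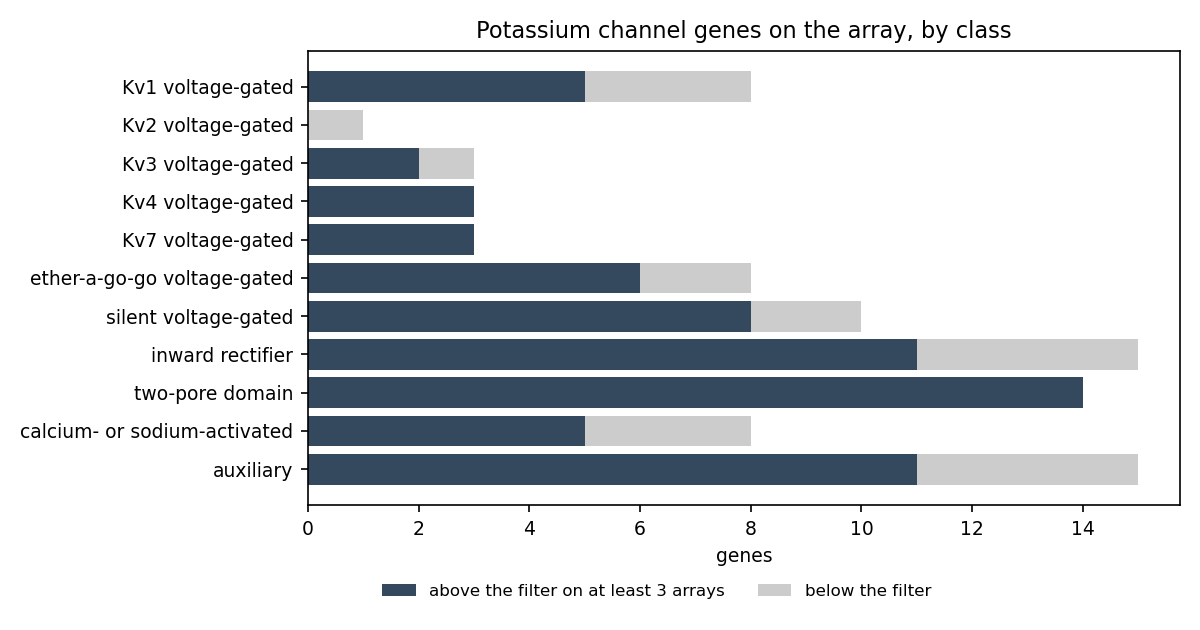
Numbers of potassium channel genes (x axis) in each class (rows), split into those tested and those below the brightness filter. All 14 two-pore domain genes were tested, and the single Kv2 gene was not.

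BMP4 moved none of these genes past the test against control. With limma and Benjamini-Hochberg adjustment over all genes, 0 of 68 passed at an adjusted p of 0.05 in BMP4 minus control, where 0.117% of all genes did. At an unadjusted p under 0.05 there were 4 members (Kcnf1, Kcne2, Kcnj14 and Kcnk5), beside 8.02% of all genes. In GREM1 minus control 1 of 68 passed, Kcnab3, which was higher, beside 4.28% of all genes in either direction and 2.07% higher. At an unadjusted p under 0.05 there were 6, beside 20.0% of all genes. In BMP4 minus GREM1 2 of 68 passed, Kcnf1 higher and Kcnab3 lower, beside 6.45% of all genes (3.62% higher and 2.83% lower). There were again 6 at an unadjusted p under 0.05, beside 19.4% of all genes. These shares of members lie near or below the background in each comparison. Kcnab3 counts in both GREM1 comparisons, and it passed the brightness filter through the group in which it was high, as described below.

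The typical difference was small. The median absolute difference over the 68 was 0.066 in BMP4 minus control, 0.091 in GREM1 minus control and 0.083 in BMP4 minus GREM1. Over all genes tested it was 0.097, 0.13 and 0.12 in the same comparisons. The signed medians of the 68 were -0.015, 0.0086 and -0.037, beside -0.0060, -0.0057 and -2.33e-05 over all genes. The first of these turned positive, to 0.020, when arrays were centred on their medians, which moved the median over all genes to 0.029. Over the alternatives that member median ran from -0.043 to 0.023, and it reached 0.012 with single arrays left out. The member median of GREM1 minus control also changed sign, running from -0.014 to 0.056 over the alternatives. No member differed by 1 or more on the log2 scale in any comparison. The 95% interval of the difference lay within 1 of 0 for 66, 66 and 65 of the 68 genes in the same order of comparisons, and within 0.5 for 61, 56 and 55. The exceptions to the wider bound were Kcnk13 and Kcnn3 in all comparisons and Kcnf1 in BMP4 minus GREM1. The within-group SD had a median of 0.143 in these genes and 0.144 in all genes tested.

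**Figure D2:**
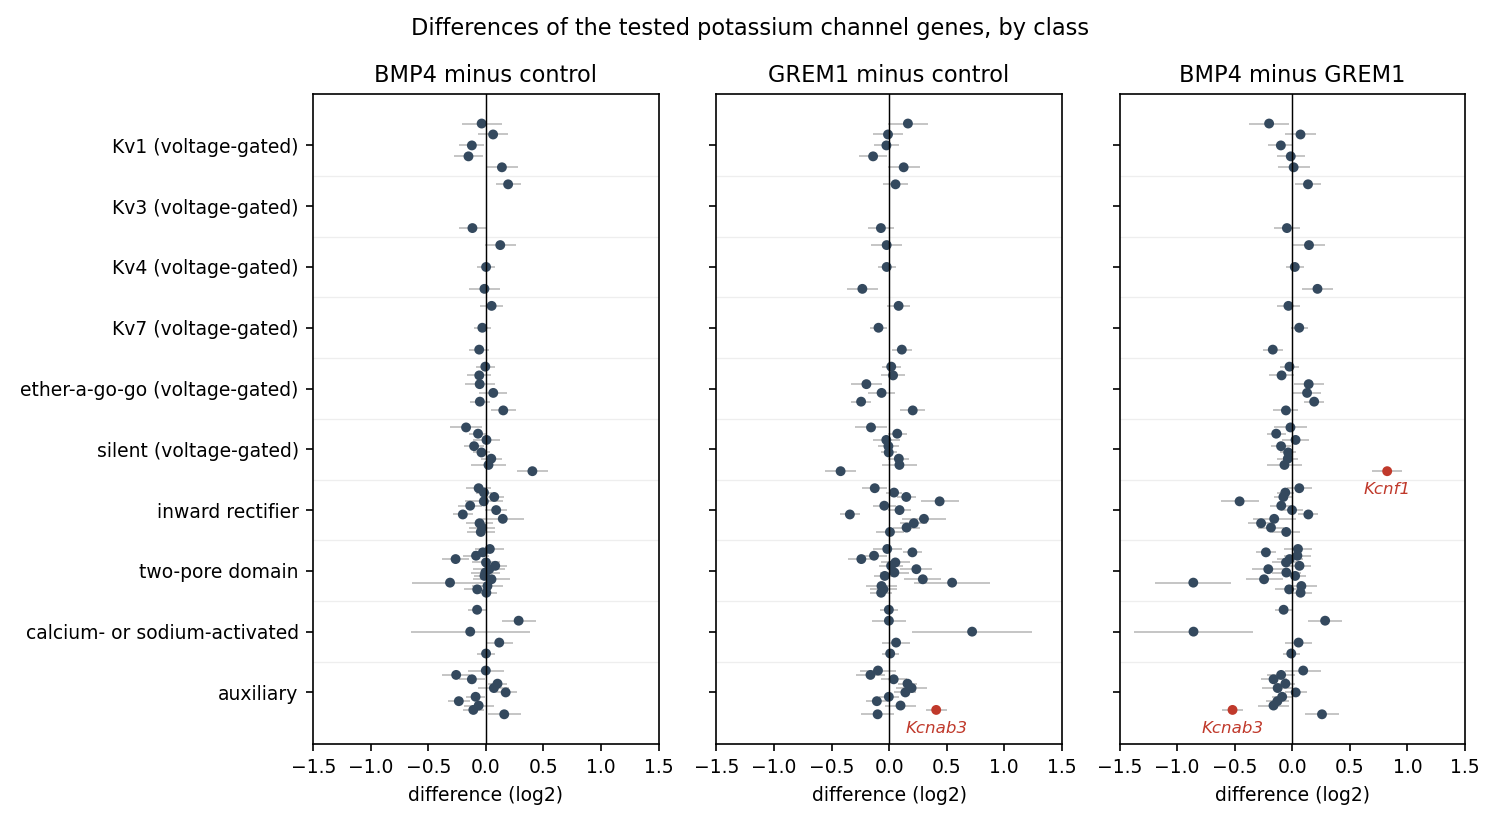
Log2 differences (x axis) of the 68 tested genes by channel class (rows), 1 panel for each comparison; each point is 1 gene, its line the SE, and genes past the adjusted threshold are red and named. Kcnab3 is past the threshold in GREM1 minus control, and Kcnf1 and Kcnab3 in BMP4 minus GREM1. Kcnn3 and Kcnk13 differ more in size than these in both comparisons, without passing. Kcnab3 passed the brightness filter through the group in which it was high.

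Among the silent voltage-gated subunits, which make no channel alone and modify the Kv2 pores they join, Kcnf1 (Kv5.1) carried the largest difference. Its level was 6.36, 6.51 and 6.38 in BMP4, 5.39, 5.55 and 5.84 in GREM1 and 5.80, 6.09 and 6.14 in control arrays. All BMP4 arrays lay above all others, and the GREM1 and control values overlapped. Kcnf1 averaged 6.42 ± 0.079 in BMP4, 5.59 ± 0.23 in GREM1 and 6.01 ± 0.18 in control (SD, n = 3 each). The difference of BMP4 minus GREM1 was 0.82 ± 0.13 (SE, 95% interval 0.53 to 1.12), 1.77-fold, with a limma adjusted p of 0.00592, which held under every alternative tried. Against control neither treatment passed in this fit: BMP4 differed by 0.40 ± 0.13 (adjusted p = 0.494 in limma) and GREM1 by -0.42 ± 0.13 (adjusted p = 0.109). GREM1 minus control passed with array weights (limma adjusted p = 0.0272) and with the replicate number as a block (0.0313). Whether that block applies was not settled. The Kcnf1 promoter in the RefSeq table (GRCm38.p6, minus strand, chr12:17176839-17177138, 300 bases around the start) is shown 5′ to 3′ because this pore subunit passed the test. It holds no E-box (CANNTG, the letters that muscle bHLH factors such as MyoD bind) and no GGCGCC, letters found in BMP-responsive elements.
Kcnf1: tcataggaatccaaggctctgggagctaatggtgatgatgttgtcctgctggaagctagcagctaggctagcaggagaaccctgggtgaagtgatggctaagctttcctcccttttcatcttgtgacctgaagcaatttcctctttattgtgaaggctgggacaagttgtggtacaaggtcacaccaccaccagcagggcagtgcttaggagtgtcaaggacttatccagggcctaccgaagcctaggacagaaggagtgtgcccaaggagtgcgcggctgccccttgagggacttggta
The other 7 tested silent subunits did not pass in any comparison. Across the group of 8, differences ran from -0.17 to 0.40 in BMP4 minus control and from -0.42 to 0.09 in GREM1 minus control, with Kcnf1 at the far end each time.

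The remaining voltage-gated pores (Kv1, Kv3, Kv4, Kv7 and ether-a-go-go genes) had 19 tested members, and 0 passed in any comparison. Kcnh1, the ether-a-go-go channel of human myoblasts before fusion, had 3.99, 4.31 and 4.05 in BMP4, 4.34, 4.11 and 4.07 in GREM1 and 3.90, 4.004 and 3.99 in control arrays. The GREM1 values lay above all control values, by 0.21 ± 0.11 (limma adjusted p = 0.330), close to the filter level. Kcnh2, the Erg channel, had 5.12, 5.03 and 5.04 in BMP4, 4.77, 4.84 and 5.01 in GREM1 and 5.22, 5.09 and 5.04 in control arrays. Every GREM1 value of Kcnh2 lay below every value of the other groups. The difference of GREM1 minus control was -0.24 ± 0.089 (limma adjusted p = 0.163). Kcnc4 (Kv3.4) had 5.83, 5.92 and 5.79 in BMP4, 5.47, 5.79 and 5.87 in GREM1 and 5.65, 5.71 and 5.60 in control arrays. Its BMP4 values lay above all control values by 0.19 ± 0.11 (adjusted p = 0.695 in limma). The Kv1 pores Kcna3 and Kcna7 and the Kv7 pore Kcnq1 differed by between -0.20 and 0.16 in all comparisons.

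Of the inward rectifiers 11 were tested and 0 passed. Kcnj2 encodes Kir2.1, which sets the resting potential of muscle fibres. It had 4.40, 4.42 and 4.08 in BMP4, 4.73, 4.75 and 4.78 in GREM1 and 4.46, 4.57 and 3.91 in control arrays. The GREM1 values lay close together and above every other value, while array 3 was lowest in both other groups. GREM1 minus control was 0.44 ± 0.17 (95% interval 0.07 to 0.81, limma adjusted p = 0.174). BMP4 minus GREM1 was -0.46 ± 0.17 (limma adjusted p = 0.156), and this passed, at 0.0375, without control array 3. BMP4 minus control was -0.02 ± 0.17. The Kcnj2 promoter (GRCm38.p6, plus strand, chr11:111065914-111066213) is shown for its inward rectifier's known part before fusion, with its 2 CANNTG matches, CAGCTG and CACGTG, in capitals. The other motif was not found in it. Of the more variable genes described below, the Kcnn3 promoter held 0 CANNTG matches and that of Kcnk13 held 1.
Kcnj2: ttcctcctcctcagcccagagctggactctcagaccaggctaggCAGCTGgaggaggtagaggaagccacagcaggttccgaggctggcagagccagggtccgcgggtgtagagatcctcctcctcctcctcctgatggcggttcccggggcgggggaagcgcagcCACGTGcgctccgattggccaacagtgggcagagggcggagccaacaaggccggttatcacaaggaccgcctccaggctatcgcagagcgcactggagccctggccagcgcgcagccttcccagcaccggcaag
Both motifs read the same on either strand, and matches of both kinds can share at most 1 base at an end. CANNTG occurs in 72.1% of the 27025 promoters of that length in the table and in 48 of the 67 promoters matched to potassium channel genes (71.6%). GGCGCC occurs in 12.0% and in 13 of 67 (19.4%). Kcnab3 and Kcnj14 were not matched.

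Kcnj14 (Kir2.4) ran the other way. It had 5.93, 5.88 and 5.81 in BMP4, 5.74, 5.62 and 5.84 in GREM1 and 6.14, 5.98 and 6.10 in control arrays. The control values lay above all treated values under either protein. The difference of GREM1 minus control was -0.34 ± 0.087 (limma adjusted p = 0.0590), just short of the threshold. The limma adjusted p was 0.0459 with the stricter brightness filter and 0.0329 with the replicate number as a block. Whether that block applies was not settled. BMP4 minus control was -0.20 ± 0.087 (limma adjusted p = 0.607). Kcnj12 (Kir2.2) had 5.41, 5.49 and 5.49 in BMP4, 5.68, 5.99 and 5.53 in GREM1 and 5.61, 5.45 and 5.49 in control arrays. Its GREM1 values were above the BMP4 values, with a difference of BMP4 minus GREM1 of -0.27 ± 0.12 (limma adjusted p = 0.239). Kcnj11 (Kir6.2), a pore of ATP-sensitive channels, overlapped between all groups and differed by -0.03, 0.15 and -0.18 in BMP4 minus control, GREM1 minus control and BMP4 minus GREM1.

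**Figure D3:**
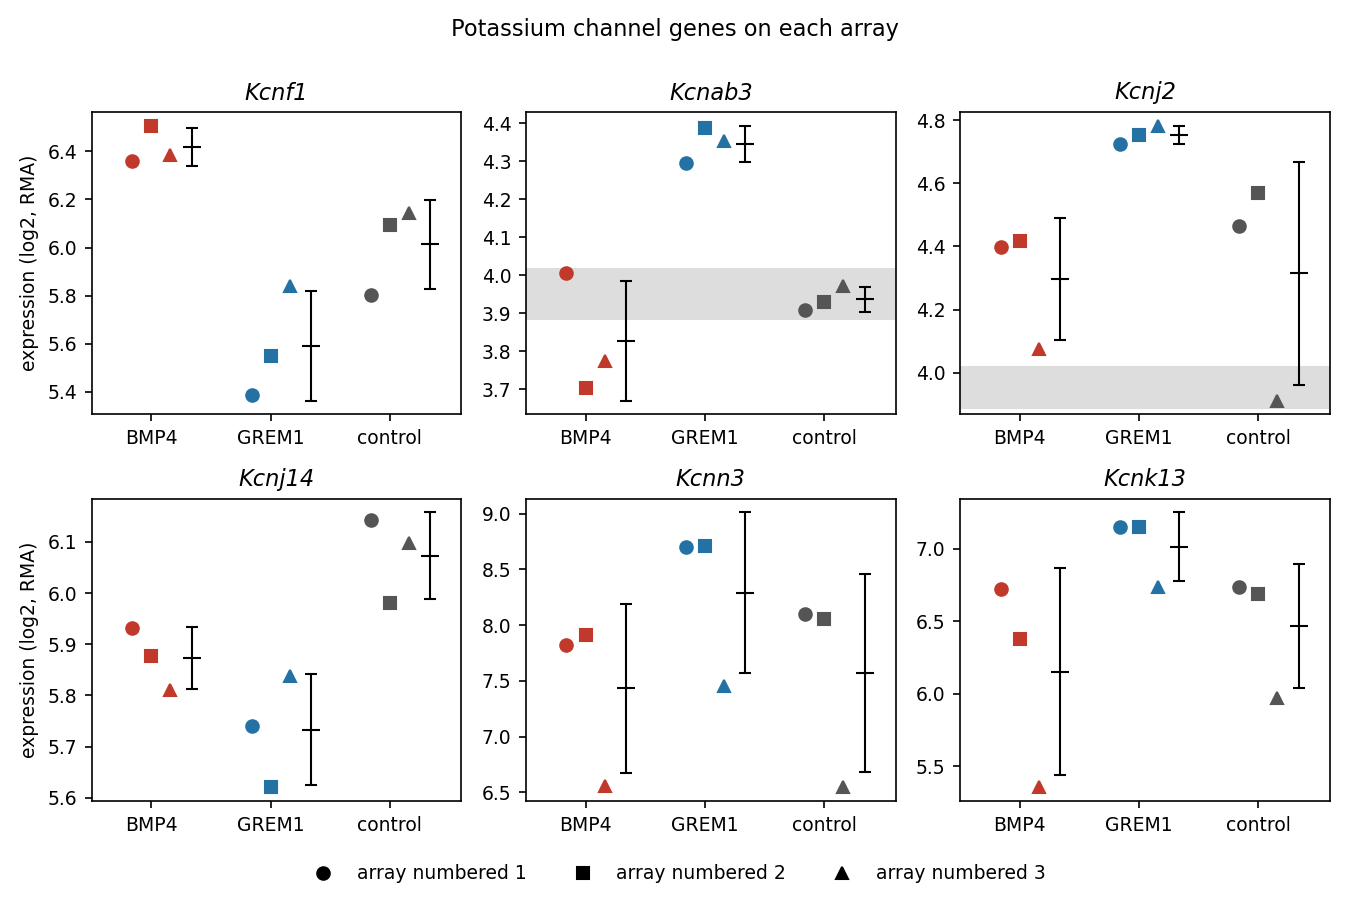
Log2 level (y axis, scaled per gene) of 6 potassium channel genes on each array, by group (x axis; BMP4, GREM1, control). Symbols give the array number, bars the mean ± SD of 3 arrays, and the grey band the filter levels of 3.89 to 4.02. Kcnf1 is highest in BMP4 and Kcnab3 in GREM1, and Kcnn3 and Kcnk13 are lowest on array 3 of each group.

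All 14 two-pore domain genes were tested and 0 passed. Kcnk13 (THIK-1) had 6.72, 6.38 and 5.35 in BMP4, 7.15, 7.15 and 6.74 in GREM1 and 6.73, 6.69 and 5.97 in control arrays. All GREM1 values lay above all others, the lowest by a narrow margin over a control array. BMP4 minus GREM1 was -0.86 ± 0.33 (95% interval -1.60 to -0.12, limma adjusted p = 0.184), and GREM1 minus control was 0.55 ± 0.33 (adjusted p = 0.397 in limma). With the replicate number as a block, Kcnk13 passed in BMP4 minus GREM1 (limma adjusted p = 0.00782). Whether that block applies was not settled. Kcnk5 (TASK-2, an acid-sensitive channel) had 4.83, 5.21 and 5.21 in BMP4, 5.13, 5.21 and 4.98 in GREM1 and 5.33, 5.34 and 5.37 in control arrays. Control was highest, with differences of -0.26 in BMP4 minus control and -0.24 in GREM1 minus control (limma adjusted p = 0.607 and 0.279). Kcnk7 had 4.60, 4.46 and 4.56 in BMP4, 4.90, 4.74 and 4.66 in GREM1 and 4.54, 4.56 and 4.60 in control arrays. Its GREM1 values lay above all others, by 0.20 ± 0.085 over control (limma adjusted p = 0.222). Kcnk2 (TREK-1, a mechanosensitive channel) differed by 0.24 ± 0.14 in GREM1 minus control (limma adjusted p = 0.384).

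Of the calcium- or sodium-activated genes 5 were tested and 0 passed. Kcnn3 encodes SK3, a small-conductance channel found in immature and denervated muscle. It had 7.82, 7.91 and 6.56 in BMP4, 8.70, 8.71 and 7.46 in GREM1 and 8.10, 8.06 and 6.55 in control arrays. Array 3 was more than 1 log2 unit below the other arrays in every group, and the groups overlapped. The GREM1 arrays differed from control by 0.72 ± 0.52 (95% interval -0.44 to 1.88, limma adjusted p = 0.484). It ran from 0.21 to 1.14 with single arrays left out. BMP4 minus GREM1 was -0.86 ± 0.52 (95% interval -2.02 to 0.31, limma adjusted p = 0.430), and BMP4 minus control was -0.14 ± 0.52. Between same-numbered arrays BMP4 minus GREM1 was -0.87, -0.80 and -0.90. With the replicate number as a block, both GREM1 comparisons of Kcnn3 passed, as given below. Whether that block applies was not settled. Among the 68 genes, Kcnn3 and Kcnk13 were the only ones with a within-group SD over 0.3 (0.791 and 0.499), beside 7.93% of all genes tested. Array 3 was lowest in each group for 8 of the 68 members, beside 10.1% of all genes. Erbb3 and Myog also varied across these arrays. Erbb3 was 7.87, 7.68 and 6.64 in BMP4, 8.94, 8.86 and 8.37 in GREM1 and 7.91, 8.10 and 6.62 in control arrays. Myog, a factor of muscle differentiation, was 10.55, 10.72 and 9.70 in BMP4, 10.75, 11.05 and 10.94 in GREM1 and 9.88, 10.46 and 9.69 in control arrays. Of the other lineage markers, Pax7, Myf5 and Myod1 were highest on array 3 of each group, and Mymk was lowest. Des, Cdh15 and Itga7 were neither in every group. Myf5 was 7.69, 7.91 and 8.41 in BMP4, 6.58, 6.85 and 7.51 in GREM1 and 7.40, 7.74 and 8.34 in control arrays. The part of these genes in the Kcnn3 and Kcnk13 values was not tested. Kcnn4, the intermediate-conductance channel, had 5.80, 5.39 and 5.33 in BMP4, 5.13, 5.31 and 5.23 in GREM1 and 4.97, 5.37 and 5.33 in control arrays. Kcnn4 differed by 0.29 ± 0.15 in BMP4 minus GREM1 (limma adjusted p = 0.339), and BMP4 array 1 was the highest value. Kcnma1, the large-conductance BK channel, differed by at most 0.01 in size in any comparison.

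Among the auxiliary subunits 11 were tested. Kcnab3, a cytosolic beta subunit of Kv1 channels, was the gene that passed. It had 4.01, 3.70 and 3.77 in BMP4, 4.30, 4.39 and 4.36 in GREM1 and 3.91, 3.93 and 3.97 in control arrays. The GREM1 arrays lay above all others. Kcnab3 averaged 3.83 ± 0.16 in BMP4, 4.35 ± 0.048 in GREM1 and 3.94 ± 0.032 in control (SD, n = 3 each). GREM1 minus control was 0.41 ± 0.091 (SE, 95% interval 0.20 to 0.61), 1.33-fold, with a limma adjusted p of 0.0388. Leaving out any 1 of the 6 GREM1 or control arrays ended that call, with adjusted p-values of 0.0772 to 0.133 in limma. BMP4 minus GREM1 was -0.52 ± 0.091, 1.43-fold lower, with a limma adjusted p of 0.00966. That call held under every alternative that could test it, and the stricter brightness filter did not keep Kcnab3. BMP4 and control values sat near the filter level, and Kcnab3 lay above it on 5 of 9 arrays, all 3 GREM1 arrays among them. It passed the filter through the group in which it was high. Kcne2, a single-span subunit of several voltage-gated channels, had 4.07, 3.91 and 3.90 in BMP4, 3.98, 4.17 and 4.12 in GREM1 and 4.35, 4.13 and 4.10 in control arrays. BMP4 values lay below all control values, by -0.24 ± 0.097 (limma adjusted p = 0.600). Kcnmb3, a beta subunit of BK channels, differed by -0.26 ± 0.12 in BMP4 minus control (limma adjusted p = 0.645). Kcne3 differed by less than 0.1 in size in every comparison.

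Groups without overlap were also counted. In BMP4 minus control 5 of 68 members did not overlap, beside 11.2% of all genes. In GREM1 minus control it was 9, beside 24.0%, and in BMP4 minus GREM1 9, beside 24.5%. A further limit was resolution: 22 of the 68 (32.4%) had the same value on 3 or more arrays, against 21.7% of all genes tested. Kcng4 had 1 value on 7 arrays, Kcnd2 on 6 and Kcnq1 on 5.

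Genes that work alongside the channels were read from the same fit. Of 11 tested potassium pumps and cotransporters, 2 passed in GREM1 minus control, beside 4.28% of all genes, and 2 in BMP4 minus GREM1, beside 6.45%. Slc12a2 (NKCC1), which carries Na+, K+ and Cl- into the cell, had 8.16, 8.17 and 7.93 in BMP4, 9.35, 9.37 and 9.27 in GREM1 and 8.06, 8.25 and 7.96 in control arrays. Its GREM1 minus control difference was 1.23 ± 0.10, 2.35-fold (limma adjusted p = 0.000542). BMP4 minus control was -0.01 ± 0.10, and both GREM1 calls held under every alternative. Fxyd5, a regulator of the sodium pump, had 6.55, 6.93 and 6.73 in BMP4, 5.95, 6.11 and 5.59 in GREM1 and 6.59, 6.54 and 6.39 in control arrays. Fxyd5 differed by -0.62 ± 0.14 in GREM1 minus control (limma adjusted p = 0.0459), and leaving out any 1 array ended that call (0.0519 to 0.124). In BMP4 minus GREM1 it differed by 0.85 ± 0.14 (limma adjusted p = 0.00822).

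Of 15 tested channel partners, 2 passed in GREM1 minus control, beside 4.28% of all genes, and 4 in BMP4 minus GREM1, beside 6.45%. Kctd12, a protein that joins GABA-B receptors and alters their response, had 8.05, 8.15 and 8.63 in BMP4, 4.64, 5.01 and 4.78 in GREM1 and 7.10, 6.996 and 7.56 in control arrays. Its GREM1 minus control difference was -2.41 ± 0.19 (limma adjusted p = 0.000542), and the groups were separate. BMP4 minus control was 1.05 ± 0.19 (limma adjusted p = 0.0925). Dpp6, an auxiliary subunit of Kv4 channels, had 5.22, 5.36 and 5.41 in BMP4, 6.33, 6.41 and 7.01 in GREM1 and 5.66, 5.43 and 5.85 in control arrays. Dpp6 differed by 0.93 ± 0.18 in GREM1 minus control (limma adjusted p = 0.0221), a call that ended without GREM1 array 2, control array 1 or control array 2 (0.0539 to 0.0662). The Kv4 pores that Dpp6 joins, 3 tested, did not pass in any comparison. Abcc9, which completes ATP-sensitive channels with Kcnj8 or Kcnj11, had 6.27, 6.35 and 5.72 in BMP4, 7.10, 7.21 and 6.75 in GREM1 and 6.31, 6.37 and 5.74 in control arrays. Abcc9 differed by -0.91 ± 0.21 in BMP4 minus GREM1 (limma adjusted p = 0.0370) and by 0.88 ± 0.21 in GREM1 minus control (adjusted p = 0.0528 in limma). Its BMP4 minus GREM1 call ended without any 1 BMP4 array or without GREM1 array 1 or 2 (0.0554 to 0.136). Nedd4l, a ubiquitin ligase that acts on ion channels, differed by -0.38 in BMP4 minus GREM1 (limma adjusted p = 0.0254), and the call ended without BMP4 array 1 or 3 or any 1 GREM1 array (0.0531 to 0.0916).

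**Figure D4:**
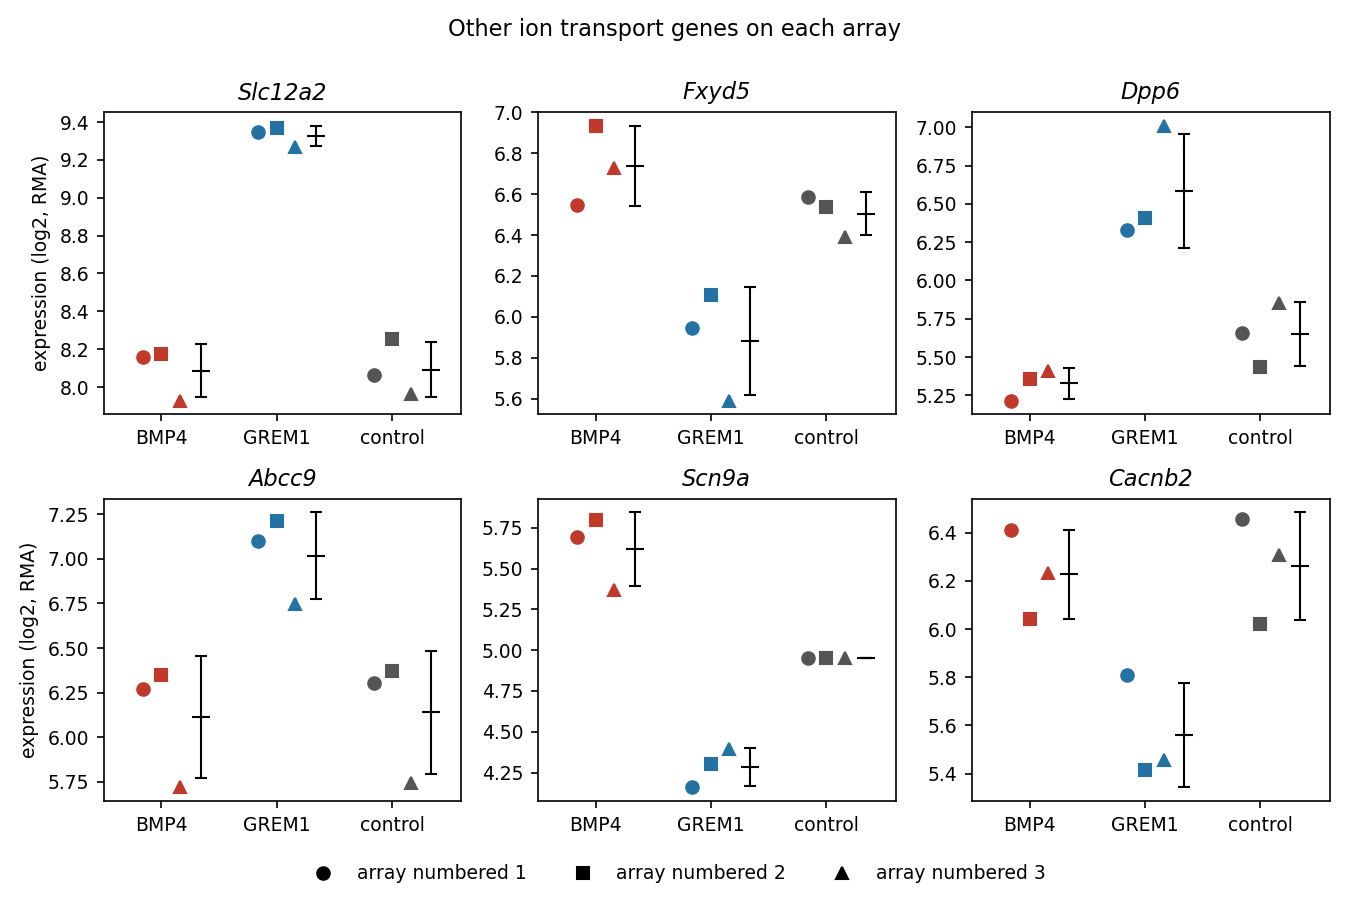
Log2 level (y axis, scaled per gene) of 6 ion transport genes on each array, by group (x axis; BMP4, GREM1, control), with symbols for the array number and bars for the mean ± SD of 3 arrays. Slc12a2, Dpp6 and Abcc9 lie higher in GREM1 than in control, and Fxyd5, Scn9a and Cacnb2 lower.

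In the sodium, calcium and chloride channel lists the background was again 4.28% of all genes in GREM1 minus control and 6.45% in BMP4 minus GREM1. Of 5 tested sodium channels, 1 passed in both comparisons, Scn9a, with 5.69, 5.80 and 5.37 in BMP4, 4.16, 4.30 and 4.39 in GREM1 and 4.95 on all 3 control arrays. Scn9a differed by -0.67 ± 0.12 in GREM1 minus control (limma adjusted p = 0.0159), a call that ended without GREM1 array 1 or 2 or control array 1 or 3 (0.0510 to 0.0662). Its BMP4 minus GREM1 difference was 1.34 ± 0.12 (limma adjusted p = 0.000183). Of 12 tested calcium channels, 1 passed in both comparisons, Cacnb2, a beta subunit. In GREM1 minus control 10 of the 12 had a positive difference, with a median of 0.27, and Cacnb2 was 1 of the other 2. It had 6.41, 6.04 and 6.23 in BMP4, 5.81, 5.42 and 5.46 in GREM1 and 6.46, 6.02 and 6.31 in control arrays. Cacnb2 differed by -0.70 ± 0.15 in GREM1 minus control (limma adjusted p = 0.0344), a call that ended without GREM1 array 2 or 3 or control array 1 or 3 (0.0886 to 0.130). The difference was 0.67 ± 0.15 in BMP4 minus GREM1 (limma adjusted p = 0.0304), which ended without BMP4 array 1 or 3 or GREM1 array 2 or 3 (0.0867 to 0.117). Of 10 tested chloride channels, 0 passed in GREM1 minus control and 2 in BMP4 minus GREM1. Clcn5, a chloride-proton exchanger of endosomes, differed by -0.52 in BMP4 minus GREM1 (limma adjusted p = 0.0356), a call that ended without any 1 BMP4 or GREM1 array or control array 2. Ano1, a calcium-activated chloride channel, differed by 0.54 (limma adjusted p = 0.0493), and leaving out any 1 array other than BMP4 array 2 ended the call. Of the 2 tested Hcn pacemaker channels 0 passed in any comparison, and in BMP4 minus control 0 genes of any of these lists passed.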

How the data were processed

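Expression was measured in 9 samples of mouse primary myoblasts, 3 each of BMP4, GREM1 and control, on 1 Affymetrix array each. The deposited values are log2 levels that the authors computed by RMA with the software Affymetrix Expression Console, as the submitters' processing notes list it. Of the array model, chip definition and genome build, the sources used here give none. RMA corrects background, normalizes between arrays and summarises a probe set, and small differences of dim probe sets are compressed by it. Values were used as deposited.

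Of 24973 probe sets 24015 had 1 symbol, 958 had none and 0 had several. Symbols came from the platform annotation, and 23922 were found in the RefSeq table with 0 updated. For 4 genes with several probe sets, no member among them, the one with the highest mean was kept. Differences were fitted with limma 3.58.1 in R 4.3.3 (lmFit, eBayes) on all 9 arrays with no covariate, 6 residual and 3.47 prior degrees of freedom, two-sided. Adjustment was Benjamini-Hochberg over 17142 genes in each comparison, with a threshold of 0.05. The scripts were tested on simulated data. The number of arrays limits the precision, and the median SE of a difference was 0.115. Levels were not compared between single genes. Levels of different probe sets were set side by side only as counts above an array's median or filter level and as sums over marker lists, where the brightest markers weigh most.

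The members and lists were chosen with earlier results of these data known. Named genes are the members past the threshold, the 6 with the smallest unadjusted p in each comparison, 15 preset members of known role in muscle or other excitable cells, and up to 4 called genes of each related list. Others were named after their values were seen. Alternatives covered the samples fitted, the variance prior, array weights, normalization, the filter, the probe set rule, the replicate number and each array left out.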

Additional observations from a re-analysis of the deposited data

How the results depend on the processing

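The count of potassium channel genes called in BMP4 minus control was 0 under every alternative. In GREM1 minus control the count of 1 became 2 with array weights (Kcnf1 added), stayed 1 with the stricter filter but with Kcnj14, since that filter leaves 23 members and not Kcnab3, and ran from 0 to 1 with single arrays left out. In BMP4 minus GREM1 the count of 2 became 1 with the stricter filter (Kcnf1) and ran from 2 to 3 with single arrays left out. With the replicate number as a block, 4 were called in GREM1 minus control (Kcnab3, Kcnf1, Kcnj14, Kcnn3) and 4 in BMP4 minus GREM1 (Kcnab3, Kcnf1, Kcnk13, Kcnn3). Under that block the adjusted p of Kcnn3 was 0.00211 in GREM1 minus control and 0.00052 in BMP4 minus GREM1, and its differences between same-numbered arrays were 0.60, 0.65 and 0.91 in GREM1 minus control and -0.87, -0.80 and -0.90 in BMP4 minus GREM1. Same-numbered arrays had correlated deviations between 0.088 and 0.580, 8 of 9 pairs over 0.1. The arrays numbered 3 correlated at 0.423 to 0.580 with each other, and BMP4 array 1 correlated slightly more with GREM1 array 2 (0.232) than with GREM1 array 1 (0.223). The labels do not say what a number marks, so whether the block applies was not settled.

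Over all genes, the 20 calls of BMP4 minus control became 65 with the replicate block, 5 with only the groups compared, 68 with array weights, 31 with the stricter filter, and 2 to 17 with arrays left out. The 734 of GREM1 minus control became 1985 with the block, 437 with only the groups compared, and 245 to 901 with arrays left out. The 1105 of BMP4 minus GREM1 became 2192 with the block, 1768 with array weights, and 563 to 1159 with arrays left out. Centring arrays on their medians changed the split of GREM1 minus control calls to 387 higher and 272 lower, against 355 and 379. Fitting only the groups compared ended the GREM1 minus control calls of Dpp6, Fxyd5 and Cacnb2 and the BMP4 minus GREM1 calls of Clcn5 and Ano1. Calls also ended with array weights (Cacnb2, GREM1 minus control), no filter (Fxyd5 in GREM1 minus control, Abcc9 and Ano1 in BMP4 minus GREM1), centring (Clcn5, Ano1), the intensity trend and a further quantile normalization (Ano1). The cause of these lost calls was not tested. The median differences moved by less than the spread between replicates. Of 1272 checks of the 72 named gene differences, 1190 kept their side of the threshold, 72 lost the call, 10 gained one and 0 reversed. Only 20 of the 72 differences were called, and 9 of these kept the call under every alternative that could test them. The rest were not called, and staying so also counts as keeping their side. A reversal was counted only where the gene was called in at least 1 of the fits compared. Differences that were not called could change sign, such as Kcnn3 in BMP4 minus control, which ran from -0.65 to 0.30.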

Other observations

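Of the 6 Kcn names left out by the rule (Kcnd3os, Kcne1l, Kcnmb4os1, Kcnmb4os2, Kcnq1ot1 and Kcnrg), all 6 were tested and Kcnq1ot1 passed. Kcnq1ot1 is a long noncoding RNA transcribed antisense within Kcnq1, known for silencing neighbouring imprinted genes such as Cdkn1c in cis. It had 7.50, 7.42 and 7.73 in BMP4, 8.13, 7.99 and 8.44 in GREM1 and 7.80, 7.51 and 7.76 in control arrays, with all GREM1 values above all others. BMP4 minus GREM1 was -0.64 ± 0.14 (SE, limma adjusted p = 0.0253), a call that ended without BMP4 array 1 or 2 or GREM1 array 1 or 3 (0.0632 to 0.0930). GREM1 minus control was 0.49 ± 0.14 (limma adjusted p = 0.0792).

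Cdkn1c, a cell cycle inhibitor, had 5.37, 5.35 and 4.96 in BMP4, 7.39, 7.02 and 8.07 in GREM1 and 5.61, 5.29 and 5.59 in control arrays, and GREM1 minus control was 2.00 ± 0.24 (limma adjusted p = 0.00321). It was chosen after its values were seen. Kcnq1 itself overlapped between all groups and differed by 0.11 ± 0.086 in GREM1 minus control (limma adjusted p = 0.526). The strand that each probe set reads is not given in the sources used here, so signal of Kcnq1 and Kcnq1ot1 where they overlap cannot be told apart.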
